A study of Mus musculus with 4 samples.

Results

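The integrin and laminin chains were examined in RNA sequencing of the mouse frontonasal prominence (FNP), the part of the embryonic face that forms the nose and snout. A gene was a member if its symbol named an integrin alpha chain (Itga and a number or letter), an integrin beta chain (Itgb and a number) or a laminin alpha, beta or gamma chain (Lama, Lamb or Lamc and a number). This gave 37 members, 26 integrin and 11 laminin chains, of 33708 rows of autosomal genes, and the members lay on 14 chromosomes. The tissue was taken at E10.5, at 29 somites, from 4 embryos of the FVB/NJ strain. The 2 wild-type embryos (WT, Smchd1+/+) were labelled female (replicate 1) and male (replicate 2). The 2 embryos homozygous for MommeD43 (MD43), a chemically induced missense allele of the chromatin protein gene Smchd1 that every cell of the embryo carries, were both labelled male. The replicate 2 embryos of both genotypes had the same mother, and the replicate 1 embryos had other mothers. Another record of the study lists WT replicate 2 as female, in which case sex and genotype cannot be told apart.

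Laminins are cross-shaped proteins assembled from an alpha, a beta and a gamma chain, and they form the sheet of the basement membrane under epithelia and around vessels and nerve tissue. Integrins are receptors of an alpha and a beta chain that span the cell membrane, bind laminins, collagens, fibronectin or proteins on other cells, and connect them to the cytoskeleton. In the embryonic face, basement membranes lie between the surface ectoderm or the forebrain neuroepithelium and the neural crest mesenchyme.

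Each genotype had a single value per gene, the log2 RPKM (reads scaled by exon length and library size) averaged over its 2 libraries. No value per embryo was given, so no difference below was tested and none has an SD. What read counting alone allows could be computed. The product of the reads of the 2 libraries was recovered from each value, and "reads" below means its square root, the geometric mean of the libraries. The ± beside a log2 difference is the smallest standard error that these reads allow, and it leaves out the variation between embryos. The depth, as a geometric mean of 2 libraries, was 22328791 reads in MD43 and 16055882 in WT, so equal levels gave 1.39 times as many reads in MD43. A gene was counted as higher or lower if it reached 10 reads in WT or MD43 and its RPKM differed by at least 1.5-fold.

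Markers of several tissues were detected at 10 reads, but 15377 genes reached this minimum, so detection does not identify the tissue. All 11 facial mesenchyme markers reached 10 reads, among them Msx1 and Twist1, as did all 10 listed neuroepithelial markers in the table, led by Sox2, Nes and Lhx2. Smchd1 itself was at 3.30 log2 RPKM in MD43 and 3.31 in WT, a difference of -0.01 ± 0.02. Markers of 2 cell types were higher in MD43. Of the 15377 genes, 4.24% were past 1.5-fold higher and 6.43% lower. Of 12 surface epithelium markers, 7 were past 1.5-fold higher and 0 lower, and their summed level was 218 RPKM in MD43 and 146 in WT. The most abundant, the keratins Krt18 and Krt8 and the claudin Cldn6, differed by 0.49, 0.70 and 0.87, and Cldn7 and the cadherin Cdh1 by 0.87 and 0.73. Of 7 red blood cell markers, 6 were higher, with sums of 5818 and 3059 RPKM. The embryonic globins Hbb-bh1, Hbb-y and Hba-x were the most abundant and differed by 1.04, 0.84 and 0.79, and Slc4a1, Epb42 and Klf1 by 1.52, 0.98 and 0.88. In a piece of tissue, fewer cells of a type and less RNA per cell cannot be told apart.

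Of the 37 chains, 31 reached 10 reads in WT or MD43. Among them 3 were past 1.5-fold higher in MD43 (Itga3, Itgb6 and Itgb7), beside 4.24% of the 15377 genes over the same read minimum. Lower in MD43 were 2 chains (Lamb3 and Lamc3), beside 6.43% of those genes, and 26 were within 1.5-fold. By sign 15 chains were higher and 16 lower, with a median log2 difference of -0.05, and the median of the 15377 genes was 0.01. Of the 5 chains past 1.5-fold, 4 had fewer than 100 reads in both genotypes, and Itgb7 passed the minimum through MD43 alone. With at least 200 reads, 16 chains remained, of which 1 was higher (Itga3) and 0 lower, and the shares among all 9968 such genes were 0.732% and 1.3%.

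By chain type, the integrin alpha chains (14 of 18 over the minimum) had 1 member higher, 0 lower and a median log2 difference of -0.01. The integrin beta chains (7 of 8) had 2 higher, 0 lower and a median of 0.04. Laminin alpha chains (4 of 5) had none past 1.5-fold in either direction and a median of -0.11. Of the 3 laminin beta chains 1 was lower, with a median of -0.09, and of the 3 laminin gamma chains 1 was lower, with a median of 0.35. With a minimum of 50 reads, the integrin beta median was -0.19 and the laminin beta median 0.11, so the signs of both depend on the chains with few reads.

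**Figure D1:**
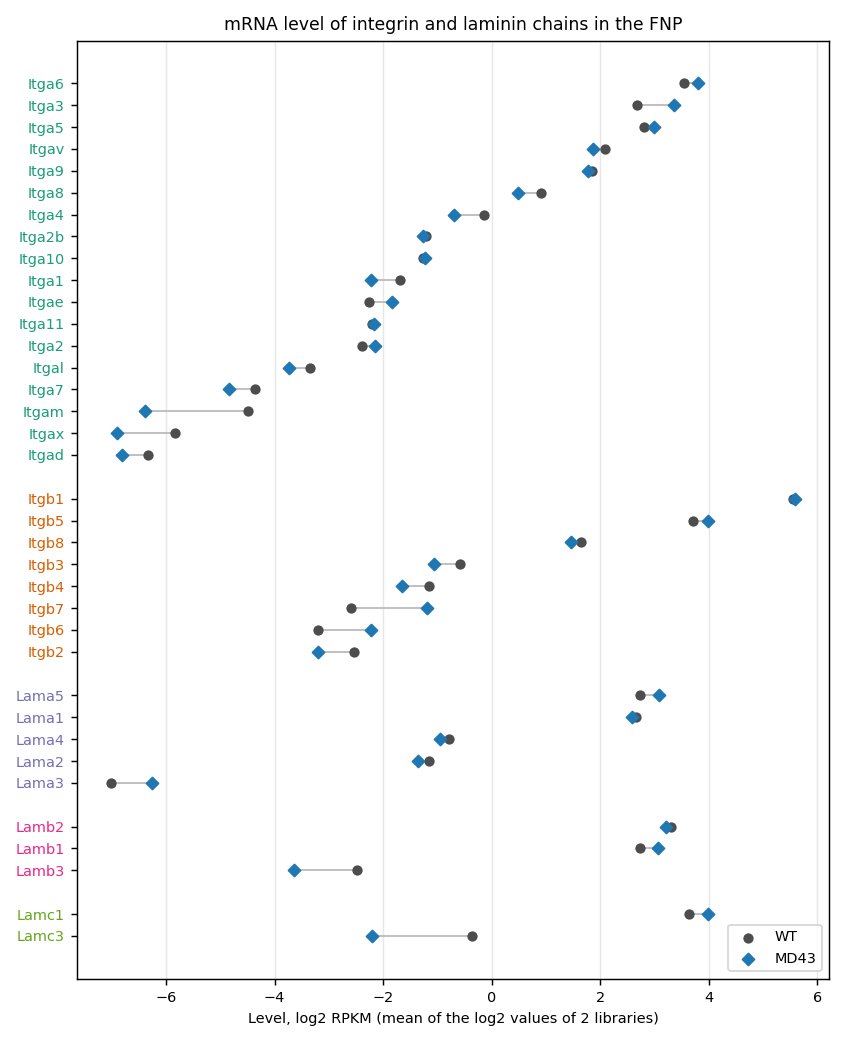
Level of 36 chains, grouped by chain type and ordered by level. The x axis is log2 RPKM, grey circles are WT and blue diamonds MD43, and each point is the authors' mean over 2 libraries. Itgb1 was the highest chain in both genotypes (5.55 and 5.59), Lamc3 and Itgb7 show wide gaps between genotypes among the low chains, and the points of Itgad mark the value given to a gene without reads.

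The laminin chains of highest level were the gamma chain Lamc1, the beta chains Lamb1 and Lamb2 and the alpha chains Lama1 and Lama5, which assemble with each other. Lamc1, the gamma chain of most laminins (ENSMUSG00000026478, GRCm38 chromosome 1, 153218922 to 153332786, minus strand), was the highest laminin chain, at 3.64 log2 RPKM in WT and 3.99 in MD43, from 1652 and 2928 reads. Its log2 difference was 0.35 ± 0.03. Lamb1, a beta chain that pairs with Lama1 or Lama5 (ENSMUSG00000002900, chromosome 12, 31265234 to 31329644, plus strand), was at 2.73 in WT and 3.06 in MD43, a difference of 0.32 ± 0.04. Lama5, an alpha chain of many epithelial and vascular basement membranes (ENSMUSG00000015647, chromosome 2, 180176373 to 180225859, minus strand), was at 2.73 in WT and 3.09 in MD43, a difference of 0.36 ± 0.04. All 3 chains of the alpha5 beta1 gamma1 laminin were thus higher in MD43 by 1.25-fold (Lamb1) to 1.28-fold (Lama5), under the 1.5-fold threshold.

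The other abundant laminin chains did not show this. Lama1, an alpha chain typical of early embryonic and neuroepithelial basement membranes, was at 2.66 log2 RPKM in WT and 2.59 in MD43, a difference of -0.06 ± 0.04. Lamb2, the other abundant beta chain, was at 3.29 and 3.20, a difference of -0.09 ± 0.04. The make-up of the alpha chains therefore differed, with Lama5 at 47.5% of their summed RPKM in WT and 55.1% in MD43, and Lama1 at 45.1% and 39.0%. Among beta chains Lamb1 was 39.9% in WT and 47.3% in MD43, and Lamb2 59.0% and 52.3%.

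These differences can be read against genes of high reads. Of the 9 chains that reached 1000 reads in WT or MD43, 7 were higher in MD43, with a median of 0.28. The 5244 genes with as many reads had a median of 0.05, were higher in MD43 in 62.3% of cases, and had a 5th to 95th percentile range of -0.21 to 0.29. Above that range were 4 of the 9 chains (Itga3, Lama5, Lamc1 and Lamb1) and below it 0. However, 4 of the 9 (Itga3, Itgb5, Lama1 and Lamb2) reached 1000 reads in MD43 alone, where the depth was greater. With the minimum set on the geometric mean of both genotypes, 7 chains were left, of which 5 were higher, with a median of 0.25. The median of the 4580 genes was then 0.04, and 3 chains (Lama5, Lamb1 and Lamc1) were above their 95th percentile of 0.28. Among genes whose reads lay within 2-fold of the chain, the share with a difference at least as large in the same direction was 2.28% for Lama5, 2.18% for Lamc1 and 3.51% for Lamb1. Each share counts the chain itself. The markers of surface epithelium, a tissue that lies on these laminins, had a median of 0.60, and their part in the result was not tested.

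**Figure D2:**
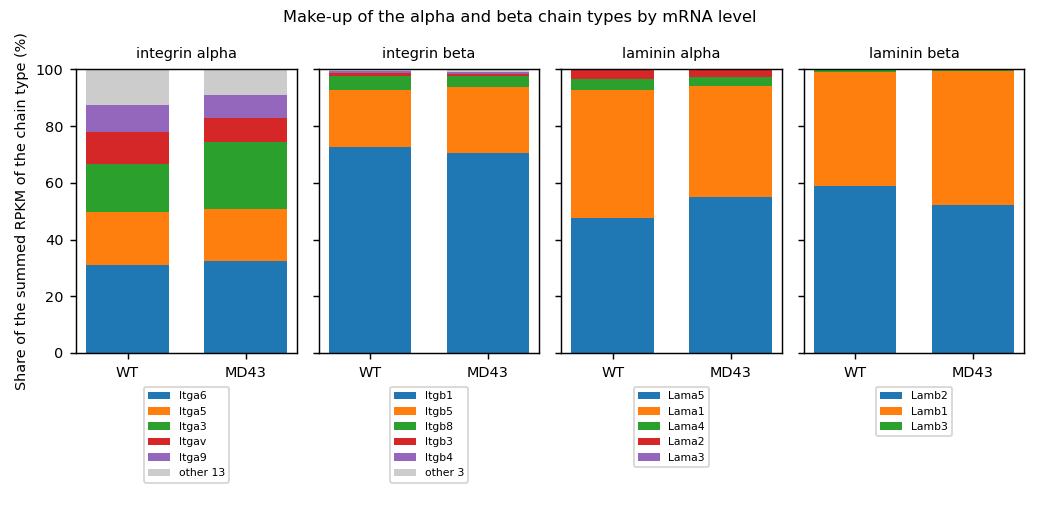
Share of each alpha and beta chain in the summed RPKM of its chain type, in percent, with WT on the left and MD43 on the right of each panel and no error bars because each bar is 1 value per genotype. Itga3 took 17.0% of the alpha chain sum in WT and 23.7% in MD43, Lama5 47.5% and 55.1%, and Itgb1 72.6% and 70.6% of the beta chain sum.

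The other alpha laminin chains were low. Lama2, the alpha chain of muscle and nerve laminins, was at -1.16 log2 RPKM in WT and -1.37 in MD43 (difference -0.21 ± 0.13). Lama4, the alpha chain of vessel laminins, was at -0.79 and -0.95 (difference -0.16 ± 0.13). Lama3, an alpha chain of the skin, had 1.34 reads in WT and 3.15 in MD43.

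Lamb3, a beta chain of stratified epithelia (ENSMUSG00000026639, chromosome 1, 193207699 to 193343878, plus strand), was at -2.49 log2 RPKM in WT and -3.64 in MD43, from 18.9 and 11.8 reads, and was 2.22-fold lower in MD43 (log2 difference -1.15 ± 0.38). The surface epithelium markers had a median of 0.60, opposite in sign to this difference, and their part in it was not tested. Over 9 known laminin trimers, none of them with Lamc3, the chain of lowest level was the same gene in WT and MD43 in 9. It was an alpha chain in 8, and several of these trimers share the same alpha chain. Trimers with Lamc3 were not examined.

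Lamc3, a gamma chain best known from the retina and the surface of the brain (ENSMUSG00000026840, chromosome 2, 31887291 to 31946539, plus strand), had the largest difference of the 31 chains. It was at -0.37 log2 RPKM in WT and -2.21 in MD43, from 75.5 and 29.5 reads, and was 3.56-fold lower in MD43 (log2 difference -1.83 ± 0.22). Of 2349 genes with reads within 2-fold, Lamc3 included, 17 (0.724%) were lower by at least as much. An antisense gene, Gm13441, shares 382 bases with its exons. It had 2.45 reads in WT and no read in MD43. The use of strand in counting is not stated. The neuroepithelial markers as a list had a median difference of -0.05. Past 1.5-fold, 0 of 10 were higher and 1 lower (Fabp7, -0.89), beside 4.24% and 6.43% of genes over the read minimum.

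Among the integrin alpha chains, those that bind laminin were the most abundant group and the one with the largest difference in summed level. Itga6, the alpha chain of the laminin receptors alpha6 beta1 and alpha6 beta4, was at 3.54 log2 RPKM in WT and 3.80 in MD43, from 1691 and 2798 reads, a difference of 0.25 ± 0.03. Itga3, the alpha chain of the receptor alpha3 beta1 for epithelial laminins (ENSMUSG00000001507, chromosome 11, 95044474 to 95076801, minus strand), was at 2.68 in WT and 3.35 in MD43, from 587 and 1301 reads, and was 1.59-fold higher (log2 difference 0.67 ± 0.05). In rank it passed Itga5, which was above it in WT and below it in MD43. Of 4985 genes with reads within 2-fold of those of Itga3, itself included, 8 (0.160%) were higher in MD43 by at least as much. The surface epithelium markers, of which 9 were higher and 3 lower by sign, had a median of 0.60, and their part in the result was not tested. Itga7, the third of this group and a muscle chain, had 6.32 reads in each genotype. The summed RPKM of the group was 18.1 in WT and 24.1 in MD43.

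The 250 bases before the RefSeq start of each gene are shown for the called chain Itga3, for Lama5 and Lamb1 of the alpha5 beta1 gamma1 laminin, and for their common receptor chain Itgb1, which differed little, so that their base composition can be compared. The table of promoters had an entry for 23 of the 37 chains. Bases that belong to the gene's first annotated exon in GENCODE were left off, which leaves 163 bases for Itga3 and 191 for Lamb1. Capitals mark the GC box letters GGGCGG or its reverse complement, and in Lamb1 also CCAAT, and sequences are from RefSeq (GRCm38.p6), 5′ to 3′ on the strand of the gene. Their positions are chr11:95076802-95076964 (minus) for Itga3, chr2:180225860-180226109 (minus) for Lama5, chr12:31265043-31265233 (plus) for Lamb1 and chr8:128685404-128685653 (plus) for Itgb1.
Itga3: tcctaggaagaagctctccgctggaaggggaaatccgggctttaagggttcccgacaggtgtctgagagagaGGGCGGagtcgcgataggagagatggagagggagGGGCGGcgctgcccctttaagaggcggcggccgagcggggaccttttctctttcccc
Lama5: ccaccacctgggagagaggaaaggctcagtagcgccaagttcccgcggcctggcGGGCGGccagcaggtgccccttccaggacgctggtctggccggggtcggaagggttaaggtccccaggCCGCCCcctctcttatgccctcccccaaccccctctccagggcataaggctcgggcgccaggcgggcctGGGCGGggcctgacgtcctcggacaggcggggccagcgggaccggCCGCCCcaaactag
Lamb1: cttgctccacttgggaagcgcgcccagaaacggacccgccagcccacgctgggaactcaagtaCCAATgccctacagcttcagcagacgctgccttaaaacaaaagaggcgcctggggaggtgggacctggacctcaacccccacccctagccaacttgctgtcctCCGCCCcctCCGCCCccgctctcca
Itgb1: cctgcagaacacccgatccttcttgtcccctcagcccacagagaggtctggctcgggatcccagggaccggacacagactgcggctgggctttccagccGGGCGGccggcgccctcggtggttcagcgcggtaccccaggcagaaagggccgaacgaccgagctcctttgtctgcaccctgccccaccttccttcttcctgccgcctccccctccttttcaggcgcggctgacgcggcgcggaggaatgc

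All 4 windows were rich in G and C, at 67.6% in Itga3, 72.4% in Lama5, 62.0% in Lamb1 and 68.0% in Itgb1 over the full 250 bases, where the median of 32851 promoters was 52.4%. The CG dinucleotide occurred 22, 19, 14 and 21 times in the same order, where the median was 6. The GC box, searched on both strands of the full 250 bases, was found 3 times in Itga3, 4 times in Lama5, 2 times in Lamb1 and 1 time in Itgb1. For Itga3, 2 of the 3 lie in the printed bases. Of all promoters, 32.7% held the GC box. CCAAT was found 1 time, in Lamb1 (33.9% of all promoters). The letters TATAAA (12.4%), the AP-2 letters GCCNNNGGC (13.7%) and the grainyhead letters AACCGGTT (0.116%) were in none of the 4 windows. These matches describe the letters of the windows, and their link to the differences between genotypes was not tested.

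The alpha chains that recognise the RGD motif of fibronectin and vitronectin were lower or close to equal in MD43, apart from Itga5. Itga5, the fibronectin receptor chain, was at 2.81 log2 RPKM in WT and 2.99 in MD43 (difference 0.18 ± 0.06). Itgav, which pairs with several beta chains and activates latent TGF-beta, was at 2.09 and 1.87 (difference -0.22 ± 0.05), and Itga8, a nephronectin receptor chain, at 0.90 and 0.48 (difference -0.42 ± 0.10). Itga2b, the platelet fibrinogen receptor chain, was at -1.22 and -1.26 (difference -0.05). None of the 4 was past 1.5-fold, and their summed RPKM was 13.6 in WT and 13.4 in MD43. Npnt, which encodes nephronectin, was at 3.07 in WT and 3.50 in MD43, a difference opposite in sign to that of Itga8.

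Itga4 and Itga9, which bind VCAM-1, fibronectin or tenascin, were both lower by sign. Itga4, a chain of migrating neural crest and blood cells, was at -0.15 log2 RPKM in WT and -0.70 in MD43 (difference -0.55 ± 0.10, just inside the 1.5-fold threshold of 0.58). The Cerkl gene on the other strand shares 1124 bases with its exons. Itga9 was at 1.85 and 1.77 (difference -0.08 ± 0.06).

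The collagen receptor alpha chains were all low, between -2.39 and -1.27 log2 RPKM in WT. Itga1 differed by -0.53 ± 0.15 and Itga2 by 0.25 ± 0.28, although they are neighbours 21.0 kb apart on the same strand of chromosome 13. Itga10 and Itga11, chains of cartilage and fibroblasts, each differed by 0.03. Itga10 shares 33.5% of its exon length with Gm42957 on the same strand, which had more reads than Itga10 (226 in MD43 and 177 in WT), so its level is uncertain. The same holds for Itga1, which shares 685 exonic bases on the same strand with Gm49395, a gene of 427 reads in MD43 and 287 in WT where Itga1 had 89.1 and 92.4.

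Leukocyte chains were at the limit of detection. Itgal had 10.4 reads in WT and 10.95 in MD43 (difference -0.40 ± 0.44). Itgae was at -2.27 log2 RPKM in WT and -1.83 in MD43 (difference 0.44 ± 0.32). Itgam, Itgax and Itgad, which lie next to each other on chromosome 7, had at most 3.61 reads, and Itgad had none in any library. Itgb2, the partner of these chains except Itgae, had 8.49 reads in WT and 7.42 in MD43. Macrophage markers were low too, at a summed 8.22 RPKM in WT and 6.36 in MD43. Past 1.5-fold lower were 3 of 8 (C1qb, Tyrobp and Ptprc, each with at most 31.0 reads), beside 6.43% of genes over the read minimum. Ptprc passed the minimum through WT alone, the genotype in which it was higher. Csf1r, the most abundant of these markers, differed by -0.03.

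**Figure D3:**
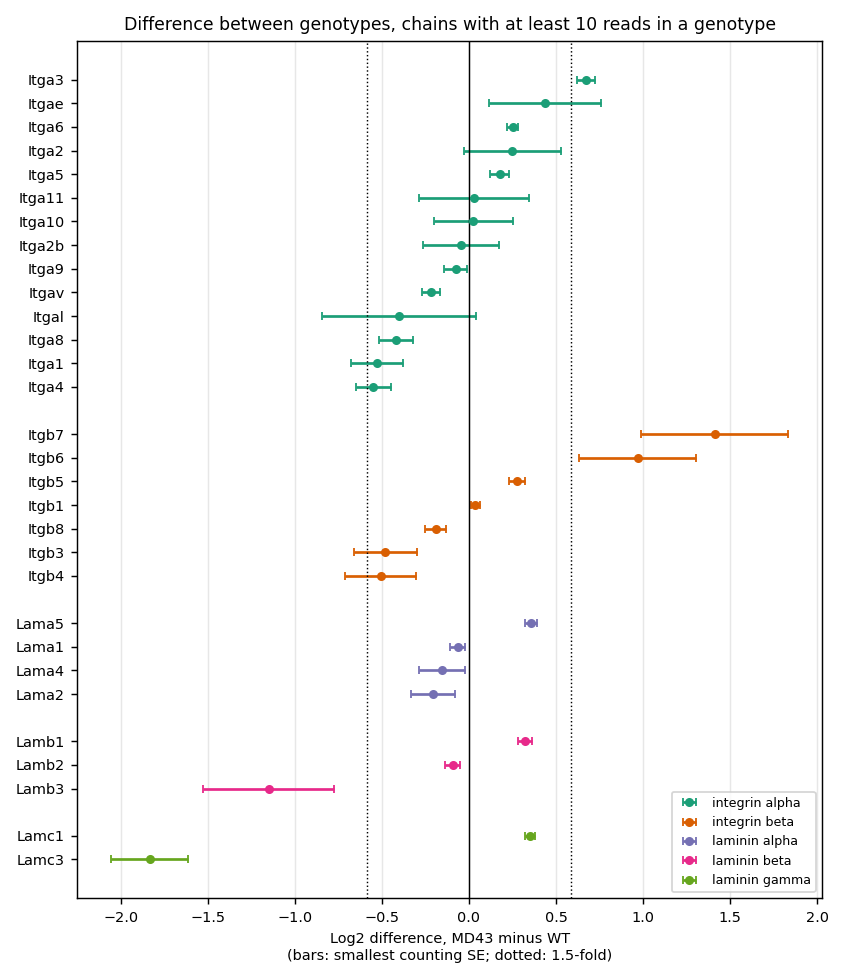
Log2 difference, MD43 minus WT, of 30 chains over the read minimum, by chain type. Bars are the smallest counting SE, not the spread between embryos, and dotted lines mark 1.5-fold. Itga3, Itgb6 and Itgb7 lie past the right line, Lamb3 and Lamc3 past the left one, and the bars are widest for the chains with few reads.

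Itgb1, the beta chain shared by 12 of the alpha chains (ENSMUSG00000025809, chromosome 8, 128685654 to 128733200, plus strand), was the highest of all 37 chains, at 5.55 log2 RPKM in WT and 5.59 in MD43, from 3077 and 4391 reads. Its difference was 0.04 ± 0.02. The alpha chains that pair with it summed to 36.9 RPKM in WT and 42.2 in MD43, or 78.5% and 87.6% of the Itgb1 level. Itgb1 was thus the higher side of each beta1 pair in both genotypes. In 24 known integrin pairs, the lower chain was the same gene in WT and MD43 in 23, the exception being alphaE beta7, where it was Itgb7 in WT and Itgae in MD43.

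Of the beta chains that pair with alpha v, Itgb5, a vitronectin receptor chain, was at 3.70 log2 RPKM in WT and 3.98 in MD43 (difference 0.28 ± 0.05), above its partner Itgav in both. Itgb8, which activates TGF-beta in the neuroepithelium, was at 1.64 and 1.45 (difference -0.19 ± 0.06), and Itgb3, the chain of platelets and angiogenic vessels, at -0.59 and -1.07 (difference -0.48 ± 0.18). Of 9 megakaryocyte and platelet markers 4 were over the read minimum. Past 1.5-fold lower were 2 of these, Pf4 and Ppbp, beside 6.43% of genes over the read minimum. Ppbp had 14.5 reads in WT and 10.1 in MD43. The 9 markers summed to 9.50 RPKM in WT and 5.999 in MD43. Gp1bb was the second most abundant of them, after Pf4, and differed by -0.41, and the markers' part in the value of Itgb3 was not tested. Itgb4, the hemidesmosome chain, was at -1.15 and -1.66 (difference -0.51 ± 0.20), opposite in sign to its partner Itga6. It was also opposite in sign to the surface epithelium markers, with a median of 0.60, whose part was not tested.

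Itgb6, an epithelial chain that activates TGF-beta (ENSMUSG00000026971, chromosome 2, 60598292 to 60722643, minus strand), was at -3.20 log2 RPKM in WT and -2.23 in MD43, from 12.4 and 33.9 reads, a difference of 0.97 ± 0.34. Itgb7, a chain of gut-homing lymphocytes (ENSMUSG00000001281, chromosome 15, 102215995 to 102231944, minus strand), was at -2.60 and -1.19, from 7.35 and 27.2 reads, a difference of 1.41 ± 0.42. Among genes with reads within 2-fold, each chain included, 3.76% and 1.76% were higher by at least as much. The partners of Itgb7 had differences of -0.55 (Itga4) and 0.44 (Itgae).

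For chains with few reads the product of the 2 libraries has few factors, so the reads of the single libraries could be narrowed down. Pairs up to 16-fold apart were considered. The fold between libraries was read from genes with 1 possible pair and a product over 10000 and up to 100000. Across these 199 genes in MD43 and 259 in WT, its median was 1.53 and 1.52. The quartiles of this fold were 1.37 to 1.75 in MD43 and 1.25 to 1.91 in WT. The median was taken as the fold in depth, although read noise and differences between embryos also enter it. Which embryo is the deeper one cannot be told. In 9 of 40 chain values with a whole product, 1 pair was possible.

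The Itgb6 product in WT was 155, which is 5 and 31 reads, and in MD43 1147, which is 31 and 37 reads. One WT library thus had 6.20 times the reads of the other, and the higher WT library overlapped with MD43 after scaling for depth in all 4 assignments to the deeper and shallower libraries. The difference of Itgb6 between genotypes, 1.96-fold, was smaller than the fold between the WT embryos, also after division by 1.52 for depth. Lamc3 had 41 and 139 reads in WT as the only pair, and 28 and 31 or 14 and 62 in MD43. Its WT libraries therefore differed by 3.39-fold before scaling for depth, beside the 3.56-fold between genotypes. In 5 of 8 assignments both MD43 libraries were below both WT libraries.

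Lamb3 had 17 and 21 or 7 and 51 reads in WT. Of 4 pairs in MD43 the most even was 10 and 14, and 7 of 32 assignments had no overlap. Itgb7 had 6 and 9 reads as the most even of 3 pairs in WT, and 18 and 41 or 9 and 82 in MD43, and 5 of 24 assignments had no overlap. Itga2b, within 1.5-fold between genotypes, had 29 and 49 reads in WT and 29 and 89 in MD43.

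Of the 17 chains over the read minimum with pairs in both genotypes, 0 were without overlap in every assignment of every pair, and of 6360 genes with such pairs 0.0472% were so with MD43 higher and 0.252% with MD43 lower. With the most even pairs alone, 2 chains (Lamb3 and Lamc3) had both MD43 libraries below both WT libraries in all 4 assignments, beside 4.26% of the genes, and 0 had them above, beside 2.19%. The reads of Itga3, Lama5, Lamb1, Lamc1 and the other abundant chains were too high to be factored, and how far their embryos differ is not known from this table.

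**Figure D4:**
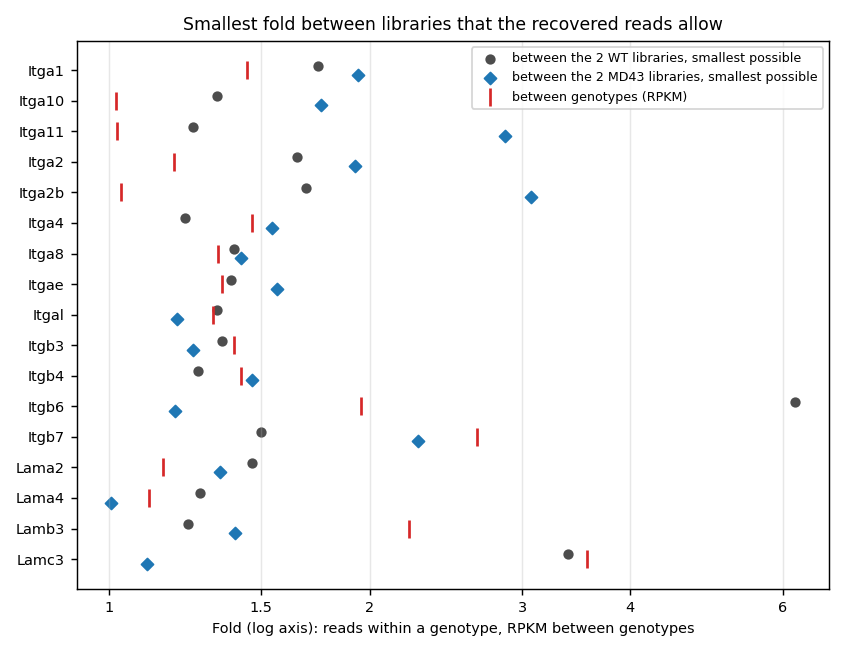
Smallest fold between the reads of the 2 libraries of a genotype that the recovered product allows (circles WT, diamonds MD43, not scaled for depth) and the RPKM fold between genotypes (red bars), for 17 chains, on a log axis. For Itgb6 the WT libraries lie 6.20-fold apart against 1.96-fold between genotypes, and for Lamc3 3.39-fold against 3.56-fold.

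Genes that work with the chains were compared next. Counts past 1.5-fold in these lists can be read beside 4.24% higher and 6.43% lower of the 15377 genes over the read minimum. Of 20 other basement membrane proteins, 18 were in the table and 16 were over the read minimum, with a median log2 difference of 0.16. The most abundant, Col18a1, Agrn and Dag1, differed by 0.11, 0.15 and 0.19. Col15a1, a collagen of vessel and muscle basement membranes, was 2.06-fold higher (57.0 WT and 163 MD43 reads) and Smoc2 1.77-fold lower (23.7 and 18.7 reads). No other member over the read minimum was past 1.5-fold.

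Of 18 other extracellular ligands of integrins, 15 were over the minimum, with a median of -0.08, none past 1.5-fold higher and 2 lower. Fn1, Thbs1 and Fbn2 were the most abundant, with differences of 0.19, -0.29 and 0.10. Vtn, the vitronectin bound by alpha v integrins, was 3.48-fold lower (53.7 WT and 21.4 MD43 reads), and Icam1, the ligand of the leukocyte beta2 integrins, 1.92-fold lower (35.1 and 25.4 reads).

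Inside the cell, 23 of 24 adaptors and kinases of integrin adhesions were over the minimum, and 0 were past 1.5-fold in either direction, with a median of 0.02. The linker kinase Ilk, Git1 and the kindlin Fermt2 were the most abundant and differed by -0.02, 0.12 and -0.01. Of 6 hemidesmosome partners 1 was higher, the basal keratin Krt5 (2.25-fold, 18.0 WT and 56.1 MD43 reads), and the list had a median of 0.06. Cd151, the tetraspanin that associates with laminin-binding integrins, was the most abundant of them at 4.57 log2 RPKM in WT and 4.71 in MD43, followed by Plec and Krt14. Endothelial markers had a median of -0.11, with 1 of 9 past 1.5-fold lower (Flt1, -0.90), and Cldn5, Cdh5 and Esam as the most abundant, and facial mesenchyme markers a median of -0.17.

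**Figure D5:**
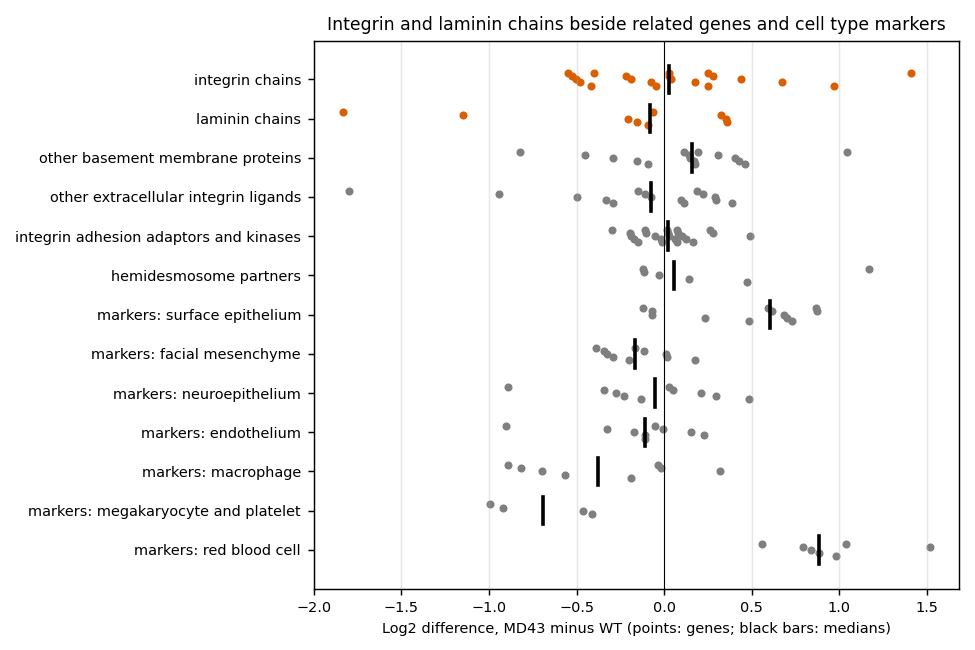
Log2 difference, MD43 minus WT, of genes over the read minimum of 10 in the integrin and laminin chains (orange) and in the comparison lists (grey). Each point is a gene and each black bar the median of its list over the members that reached the minimum, drawn or not. The surface epithelium and red blood cell markers lie to the right, with medians of 0.60 and 0.88, and the adhesion adaptors lie close to 0 with a median of 0.02.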

How the data were processed

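RNA of the FNP of 2 WT and 2 MD43 embryos was sequenced from stranded poly(A) libraries made from 100 ng of total RNA. The authors trimmed the reads with Trim Galore 0.4.4, mapped them with HISAT2 2.0.5 to GRCm38.p6 and quantified genes in SeqMonk. The deposited table holds log2 RPKM, which the authors scaled by transcript length and library size and merged within each genotype. Its other columns are the authors' FDR for genes under their threshold, their log2 fold change and their mean, and none of these was used. A test on values per library had been planned in case these were found; they were not, so no p-value was computed.

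The table was joined to GENCODE M21, and 33101 rows matched. Genes without reads share a constant (0.9 reads per empty library), from which products of the reads of 2 libraries were recovered. Products under 1000 were whole, or matched 1 or 2 empty libraries, within 0.05 in 99.9% of cases in both genotypes. Of these 19839 products in MD43 and 20250 in WT, 13202 and 13581 came from genes without reads, which match by construction. Of products from 1000 to 100000, 99.7% were whole in both genotypes. This recovery was also run on simulated libraries. They were built with the same 0.9 reads per empty library, the same averaging and read noise alone, so these assumptions themselves were not tested. Splitting whole products up to 100000 into pairs of reads was chosen after seeing the data. The depth, a geometric mean of 2 libraries, was 22328791 (MD43) and 16055882 (WT) reads.

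The chains were named except 1, and that chain and 1 marker gene are not reported here. Of each comparison list the 3 most abundant members and up to 4 past 1.5-fold were named. Npnt was named after its value was seen. A minimum of 1000 reads on the mean of both genotypes was added after seeing the data. The members and lists were chosen with earlier results of these data known. Alternatives were pseudocounts of 0.1 and 1 RPKM, centring, a GC content and length correction, other read minimums and a 2-fold threshold. Python 3.11.15 with numpy 2.4.6, pandas 2.3.3 and matplotlib 3.10.9 was used.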

Additional observations from a re-analysis of the deposited data

How the results depend on the processing

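All 31 chains over the read minimum kept their sign with the GC content and length correction, whose fit took up 1.39% of the variance. A pseudocount of 0.1 or 1 RPKM added to both genotypes cannot change a sign. Centring on the median was a shift of 0.01, less than the smallest difference of these chains, so it could not change a sign either. Of the 5 chains past 1.5-fold, 4 remained past it with 0.1 RPKM added, 1 with 1 RPKM added, 5 with centring and 5 with the correction. With 0.1 RPKM added, 1 integrin beta chain was past the threshold, and with 1 RPKM added 0 integrin beta, 0 laminin beta and 0 laminin gamma chains were, since these chains lie under 1 RPKM. With at least 50 reads required, 0 integrin beta chains were higher and 0 laminin beta chains lower, and the medians turned in sign, to -0.19 for integrin beta (0.04 before) and 0.11 for laminin beta chains (-0.09 before). Without a read minimum, 2 integrin alpha and 1 integrin beta chain were lower and 1 laminin alpha chain was higher, all on fewer than 10 reads, and the integrin beta median turned to -0.08. With a 2-fold threshold 0 integrin alpha and 1 integrin beta chain were higher. No paired analysis was possible because only 1 merged value per genotype is given, and for the same reason no replicate could be left out. At this depth no difference could be detected for the 6 chains under 10 reads, and the counting errors leave out the variation between embryos, which the table does not give for the abundant chains.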

Other observations

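Genes with domains related to these chains, which the rule did not take, were read after the results above were known. Netrins and netrin-G proteins share the laminin N-terminal fold. Ntng2, a membrane-anchored netrin-G of neurons, was at 0.72 log2 RPKM in WT and -0.40 in MD43, from 106 and 67.4 reads, a difference of -1.12 ± 0.16. Ntn1, a guidance protein, differed by -0.12 ± 0.05 and Ntn3 by 0.27 ± 0.10. Ntn4, a netrin of basement membranes, was at 1.33 in WT and 0.88 in MD43, a difference of -0.45 ± 0.12. Itgbl1, which resembles the integrin beta stalk, had 4.90 reads in WT against 3.46 in MD43, and Itgb2l had none. These values have no replicate check and no test.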
